A study of Homo sapiens with 6 samples.

Results

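Nucleosomes that carry the histone variant H2A.Z were compared with nucleosomes acetylated at lysine 16 of histone H4 (H4K16ac) in HEK293T cells, a human embryonic kidney line that expresses the SV40 large T antigen. The comparison rests on 3 of the 6 chromatin immunoprecipitation sequencing (ChIP-seq) libraries of the series, namely H2A.Z with an antibody from CST, H2A.Z with an antibody from Abcam, and H4K16ac. The libraries for the variant H3.3 and for dimethylated lysine 79 of histone H3 (H3K79me2) served as further readouts that took no part in choosing genes or peaks, and no values of the input library were used. The labels name no treatment for any library, and all chromatin was fixed in 1% formaldehyde for 10 min. An H2A.Z consensus peak is a CST peak that overlaps an Abcam peak by at least 1 bp, which held for 37970 of 52325 CST peaks (72.6%). The H4K16ac list held 76748 peaks.

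Protein-coding genes of at least 1 kb, 19451 in number, were sorted by peaks within 1 kb of either end of the gene. Genes with both signals had a consensus peak and an H4K16ac peak at an end, and numbered 9445 (48.6%). Genes with H2A.Z without H4K16ac had a consensus peak at an end and no H4K16ac peak in the gene or within 5 kb of it, and numbered 2420 (12.4%). Genes with H4K16ac without H2A.Z had an H4K16ac peak at an end and no peak of either H2A.Z antibody in the gene or within 5 kb of it, and numbered 250 (1.29%). A further 21706 H4K16ac peaks (28.3% of the list) had their summit inside a protein-coding gene, over 1 kb from every gene end, and no H2A.Z peak of either antibody within 5 kb. The other genes had a signal near but not at an end, in 1 H2A.Z list only, or no peak at all, as 14.6% of genes did. These counts depend on how many peaks a list keeps: with the 20000 strongest peaks of each list, 4086 genes had both, 5167 had H2A.Z without H4K16ac and 388 had H4K16ac without H2A.Z. The last class fell to 162 genes where peaks had to be absent within 10 kb, and to 155 where only the annotated start counted as an end. Each antibody has 1 library, so no replicate spread and no p-value can be given. Intervals are exact Clopper-Pearson 95% intervals, and they cover counting error only. The read depth behind the lists is unknown here, so a weak signal below the authors' threshold counts as no peak.

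H2A.Z replaces canonical H2A in the nucleosomes that flank the starts of genes, where the SRCAP and EP400 remodelling complexes deposit it and INO80 and ANP32E can remove it. H4K16ac is written mainly by KAT8 in its MSL and NSL complexes, is removed by SIRT1 and SIRT2, and loosens the packing of nucleosomes onto each other. KAT5, the acetylase that shares a complex with EP400, also acetylates H4, so the variant and the mark meet in a single enzyme complex.

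The promoters of the leading genes of each class are printed here because H2A.Z in mammals lies mostly over CpG-rich starts. They are RefSeq sequences of GRCh38.p14, 5′ to 3′ on the strand of the gene, from 250 bases before to 50 bases after the start, with every CG dinucleotide in capitals. SRCAP (chr16:30698921-30699220, plus strand) and TASOR (chr3:56683216-56683515, minus strand) had both signals. ZNF557 (chr19:7069453-7069752, plus strand) and SWT1 (chr1:185156810-185157109, plus strand) had H2A.Z without H4K16ac. LOC107984876 (chr16:903605-903904, minus strand) and BGLAP (chr1:156241934-156242233, plus strand) had H4K16ac without H2A.Z.
SRCAP: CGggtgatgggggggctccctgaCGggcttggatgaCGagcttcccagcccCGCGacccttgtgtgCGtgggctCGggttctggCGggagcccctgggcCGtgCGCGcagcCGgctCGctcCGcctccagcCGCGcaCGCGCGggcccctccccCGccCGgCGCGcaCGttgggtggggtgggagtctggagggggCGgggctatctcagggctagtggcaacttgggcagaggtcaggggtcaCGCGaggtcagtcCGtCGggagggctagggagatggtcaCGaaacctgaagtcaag
TASOR: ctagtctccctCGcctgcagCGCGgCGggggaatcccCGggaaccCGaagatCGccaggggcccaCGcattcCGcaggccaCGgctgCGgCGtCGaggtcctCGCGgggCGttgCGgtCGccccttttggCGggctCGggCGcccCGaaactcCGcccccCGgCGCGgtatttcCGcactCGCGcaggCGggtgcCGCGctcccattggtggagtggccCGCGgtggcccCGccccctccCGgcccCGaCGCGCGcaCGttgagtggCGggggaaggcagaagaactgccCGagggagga
ZNF557: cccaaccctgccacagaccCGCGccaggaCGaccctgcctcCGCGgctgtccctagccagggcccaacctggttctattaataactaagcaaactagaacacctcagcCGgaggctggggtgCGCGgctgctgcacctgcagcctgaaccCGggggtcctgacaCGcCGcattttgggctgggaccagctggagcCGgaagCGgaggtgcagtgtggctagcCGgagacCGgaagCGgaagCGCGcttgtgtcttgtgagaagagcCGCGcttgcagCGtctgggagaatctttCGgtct
SWT1: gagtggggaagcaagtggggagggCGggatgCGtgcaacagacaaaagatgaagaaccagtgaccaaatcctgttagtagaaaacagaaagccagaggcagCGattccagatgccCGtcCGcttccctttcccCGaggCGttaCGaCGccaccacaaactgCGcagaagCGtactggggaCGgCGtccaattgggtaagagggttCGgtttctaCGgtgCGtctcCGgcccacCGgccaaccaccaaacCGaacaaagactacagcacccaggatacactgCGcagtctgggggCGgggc
LOC107984876: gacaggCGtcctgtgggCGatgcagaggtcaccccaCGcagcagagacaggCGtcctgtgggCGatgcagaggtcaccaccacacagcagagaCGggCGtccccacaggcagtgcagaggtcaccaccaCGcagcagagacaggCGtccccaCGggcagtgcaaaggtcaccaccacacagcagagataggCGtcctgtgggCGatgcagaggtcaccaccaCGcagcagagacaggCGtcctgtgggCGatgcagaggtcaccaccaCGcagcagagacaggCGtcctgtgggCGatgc
BGLAP: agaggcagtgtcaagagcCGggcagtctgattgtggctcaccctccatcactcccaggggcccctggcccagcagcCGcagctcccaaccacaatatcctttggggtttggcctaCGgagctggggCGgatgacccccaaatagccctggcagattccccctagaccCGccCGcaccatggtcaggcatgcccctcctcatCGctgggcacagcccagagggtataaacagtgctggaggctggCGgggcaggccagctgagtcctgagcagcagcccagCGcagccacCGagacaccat

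The CG dinucleotides numbered 30 in the SRCAP promoter, 43 in TASOR, 22 in ZNF557, 21 in SWT1, 18 in LOC107984876 and 10 in BGLAP. Of the 300 bases, H4K16ac peaks covered 113 in SRCAP, 241 in TASOR and 257 in BGLAP, and CST H2A.Z peaks covered 93 in SRCAP, 203 in TASOR, 300 in ZNF557 and 233 in SWT1. In LOC107984876 the printed bases lay in no peak, and its H4K16ac peak lay at the other end of the gene. Promoters were listed for 81.1% of genes with both signals and 81.4% of genes with H2A.Z without H4K16ac. The median count of CG dinucleotides was 28 with both signals (quartiles 20 and 36) and 24 without H4K16ac (quartiles 17 and 31), and median GC content was 67.0% and 62.3%. Only 73.6% of the genes with H4K16ac without H2A.Z had a listed promoter, under the 80% set for such a comparison, so it is void for them.

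Across the genome, most H4K16ac peaks did not overlap an H2A.Z consensus peak, though most had H2A.Z within 5 kb. Of the 37970 consensus peaks, 48.1% (47.6 to 48.7) overlapped an H4K16ac peak, and 74.0% had one within 5 kb. The share that overlapped was 25.7% with the 20000 strongest peaks of each list. Seen from the acetylation, 25.1% of H4K16ac peaks overlapped a consensus peak and 51.3% had one within 5 kb. No H2A.Z peak of either antibody lay within 5 kb of 34.1%. The share varied more with place in the gene for the acetylation than for the variant. H4K16ac peaks overlapped a consensus peak in 62.8% of cases at gene ends, 11.6% elsewhere inside genes and 26.8% outside genes. Consensus peaks overlapped H4K16ac in 49.5%, 52.2% and 41.4% of cases at the same places. The summits of overlapping peaks lay a median of 75 bp apart (quartiles 27 and 210 bp), a distance that the overlap itself keeps short.

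Stronger H2A.Z peaks at gene ends carried H4K16ac more often. Ranked by −log10 q in the CST list and divided into 4 equal groups, the gene-end consensus peaks overlapped H4K16ac in 32.2%, 39.5%, 54.3% and 72.2% of cases, weakest group first. The −log10 q and the fold enrichment are the authors' values for each peak. Width moved with the overlap: consensus peaks with H4K16ac had a median width of 480 bp, against 330 bp for those with no H4K16ac within 5 kb, and the part of width in the overlap was not tested.

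Consensus peaks with H4K16ac lay with H3.3 far more often than those without it. H3.3 overlapped 84.3% of consensus peaks with H4K16ac, against 40.1% of those with no H4K16ac within 5 kb, and H3K79me2 overlapped 52.5% against 32.0%. The gap in H3.3 was present at gene ends (89.3% against 52.5%), inside genes (82.9% against 39.4%) and outside genes (74.3% against 23.7%).

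Around the start, both signals lay more often inside the gene than before it, with H4K16ac further in than H2A.Z. A listed start was available for 7662 of the genes with both. Consensus peaks lay at the start in 95.3% of them and H4K16ac in 91.3%. At the far end the order was reversed, with H4K16ac in 32.6% and consensus H2A.Z in 11.5%. In the 6820 genes with both at the start, the strongest consensus summit lay at a median of 106 bp inside the gene and the strongest H4K16ac summit at 197 bp. The consensus summit lay downstream of the start in 59.4% of these genes and the H4K16ac summit in 70.4%. The H4K16ac summit was the further downstream in 58.1% of these genes (57 to 59.3). Genes with H2A.Z without H4K16ac had their H2A.Z at a median of 112 bp (n = 1893), and the summit lay downstream of the start in 66.2% (64.1 to 68.4) of them, more often than the 59.4% (58.2 to 60.5) of genes with both.

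**Figure D1:**
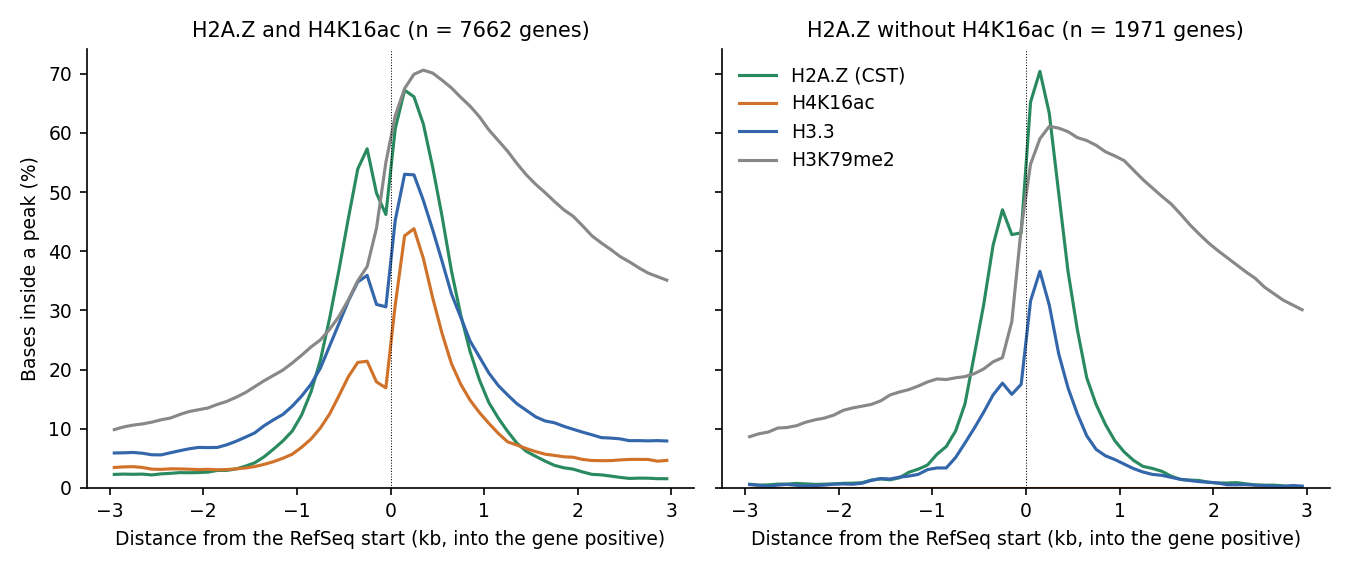
Share of bases inside a peak (y axis, percent) in 100 bp bins around the RefSeq start (x axis, kb, positive into the gene) for genes with both signals (left, 7662 genes) and genes with H2A.Z without H4K16ac (right, 1971 genes), with 1 line per list. H2A.Z (CST) reaches 67.2% and 70.4% in the bin from 100 to 199 bp, whereas H3.3 reaches 53.0% with both signals and 36.6% without H4K16ac.

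Just inside the start H2A.Z coverage was similar in these classes, and on either side it was lower without H4K16ac. The highest CST coverage was 67.2% of bases with both signals and 70.4% without H4K16ac, in the same bin in each. In the bins that begin 500 bp before and 500 bp after the start, CST coverage was 45.6% and 45.9% with both signals, against 31.0% and 26.7% without H4K16ac. The highest H3.3 coverage was 53.0% with both signals and 36.6% without H4K16ac, and the highest H3K79me2 coverage was 70.6% and 61.1%. H4K16ac coverage was 0 without H4K16ac by the choice of genes.

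The strongest joint signals were at SRCAP and TASOR. SRCAP on chromosome 16 (30699171 to 30741409), the ATPase that deposits H2A.Z, had −log10 q of 155 for H2A.Z in the CST list, 299 in the Abcam list and 121 for H4K16ac. TASOR on chromosome 3 (56620132 to 56683265), the scaffold of the HUSH silencing complex, had 89.7, 246 and 114 in the same order. These genes were high in all 3 lists. The others were ZNF644, a zinc finger partner of the H3K9 methyltransferase G9a, ELP2 and SLC39A6, which share a peak, TLE4, a Groucho corepressor, LIN9, a subunit of the cell cycle complex MuvB, GNAI2, an inhibitory G protein, and ZNF274, a zinc finger repressor that recruits SETDB1. Their H4K16ac −log10 q lay between 62.3 for GNAI2 and 127 for ZNF274. All 9 genes named here also carried H3.3 and H3K79me2 at an end, which 78.5% of the genes with both signals did.

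The 8 leading peaks of H2A.Z without H4K16ac had −log10 q of 126 to 215 in the CST list. ZNF557 on chromosome 19 (7069703 to 7087968), a zinc finger gene, had −log10 q of 215 in the CST list and 439 in the Abcam list, and the nearest H4K16ac peak lay 11 kb from the gene. SWT1 on chromosome 1 (185157060 to 185291781), an RNA endonuclease, and its neighbour TRMT1L, a tRNA-modifying enzyme, shared a peak at 152. INO80C, a subunit of the INO80 remodeller, had 148, with the nearest H4K16ac peak at 91.0 kb. OSCP1 had 135, DNAH7, an axonemal dynein, 135, CFAP206, a cilia protein, 133, FAM161A, a centrosomal and ciliary protein of photoreceptors, 129, and SEC11A, a catalytic subunit of signal peptidase, 126. All 9 carried H3.3 at an end, against 65.3% of the whole class. H3K79me2 was at an end of 6 of them, against 72.4% of the class, and INO80C, DNAH7 and CFAP206 lacked it there.

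The leading genes of H4K16ac without H2A.Z had H4K16ac −log10 q of 24.0 to 30.9 and included genes of bone, brain and mast cells. BGLAP on chromosome 1 (156242184 to 156243317), which encodes the bone protein osteocalcin, had −log10 q of 30.5 for H4K16ac, and H4K16ac peaks covered 73.1% of the gene. QRFP, a hypothalamic neuropeptide, had 24.9, CAPS, the calcium-binding protein calcyphosine, 24.0, MOB2, a regulator of NDR kinases, 24.0, and TPSG1, a mast cell tryptase, 24.0. C11orf16 had 25.7, and the RefSeq loci LOC107984876 and LOC124903757 had 30.9 and 24.7. H3.3 lay at an end of 7 of these 8 genes, all but C11orf16, and H3K79me2 at LOC124903757, CAPS and MOB2. Over the whole class the shares were 54.8% and 13.2%. Distances from the gene to the nearest H2A.Z peak ran from 8.21 kb at C11orf16 to 59.3 kb at MOB2.

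The limits of 5 kb cut through a continuous range. Genes with consensus H2A.Z and no H4K16ac in the gene had their nearest H4K16ac peak 4 to 5 kb away in 60 cases and 5 to 6 kb away in 56 cases. For genes with H4K16ac and no H2A.Z in the gene the counts were 26 and 26. Inside the classes the median distance to the nearest peak of the other kind was 45.1 kb for H2A.Z without H4K16ac and 14 kb for H4K16ac without H2A.Z.

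H3.3 and H3K79me2 were found most often where H2A.Z and H4K16ac met. H3.3 lay at an end of 94.5% (94.0 to 95) of genes with both, 65.3% (63.4 to 67.2) of genes with H2A.Z without H4K16ac and 54.8% (48.4 to 61.1) of genes with H4K16ac without H2A.Z, against 64.5% of all genes. H3K79me2, which DOT1L writes in transcribed genes, lay at an end of 81.4% (80.6 to 82.2), 72.4% (70.6 to 74.2) and 13.2% (9.26 to 18.0) in the same order, against 55.4% of all genes. Both readouts were thus above the level of all genes with both signals and below it without H2A.Z, and without H4K16ac H3.3 was at that level and H3K79me2 above it. Both readouts were absent from 2.64% of genes with both, 15.1% of genes with H2A.Z without H4K16ac and 43.6% of genes with H4K16ac without H2A.Z, against 29.8% of all genes.

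The gap in H3.3 was also present among genes of like H2A.Z strength. Both H2A.Z classes were pooled and divided into quartiles of CST −log10 q at the gene end. In quartile 1, the weakest, H3.3 lay at 89.9% of genes with both and 47.4% of genes without H4K16ac, and in the highest at 97.1% and 90.1%, with intervals that did not overlap in any quartile. For H3K79me2 the shares were 65.3% and 59.9% in quartile 1, 83.7% and 77.4% in quartile 2 and 87.6% and 84.8% in the highest. The intervals did not overlap in quartiles 1 and 2, and they overlapped in the higher quartiles. Among quartiles of gene density, described further on, H3.3 again separated the classes in each, at 91.7% against 63.2% in the sparsest and 96.8% against 58.3% in the densest. For H3K79me2 the intervals overlapped in both middle quartiles, as at 83.8% and 80.8% in the second, but not in the sparsest (81.9% and 64.1%) or the densest (80.8% and 68.0%).

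**Figure D2:**
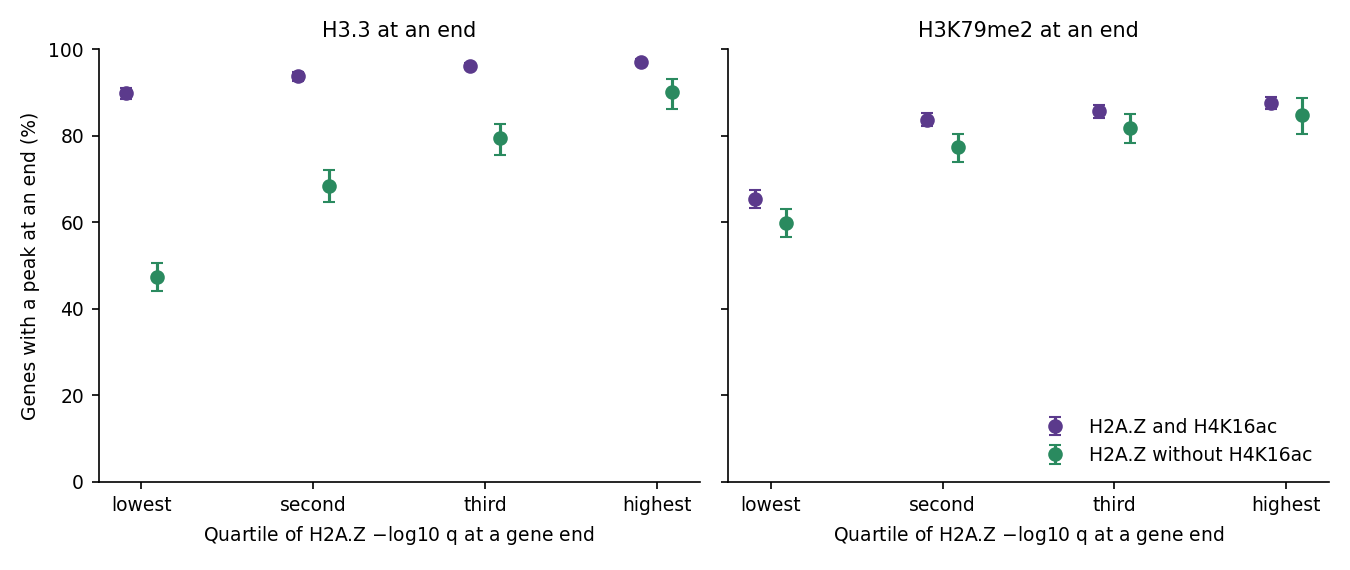
Share of genes (y axis, percent) with an H3.3 peak (left) or an H3K79me2 peak (right) within 1 kb of an end, by quartile of H2A.Z −log10 q (x axis), for genes with both signals and genes with H2A.Z without H4K16ac, with exact 95% intervals as bars. The H3.3 points lie at 89.9% and 47.4% in the lowest quartile and at 97.1% and 90.1% in the highest. The H3K79me2 points lie closer together, at 65.3% and 59.9% in the lowest quartile and 87.6% and 84.8% in the highest.

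Genes with H2A.Z carried H4K16ac more often the more genes surrounded them. Gene density was counted as other protein-coding genes within 500 kb. The median was 13 around genes with both, 7 around genes with H2A.Z without H4K16ac and 18 around genes with H4K16ac without H2A.Z, against 11 around all genes. Among the genes with consensus H2A.Z at an end, divided into 5 equal groups by density, the share with both ran from 57.5% in the sparsest (0 to 5 neighbours) through 65.7%, 71.7% and 78.5% to 85.6% in the densest (26 to 75 neighbours). The share without H4K16ac was 30.6%, 24.7%, 19.0%, 12.1% and 5.67% over the same groups. A gene in a dense region has more neighbours whose peaks can fall within 5 kb, and the part of this in the shares was not tested.

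Chromosomes differed as well. Of the genes with H2A.Z at an end, 91.1% (87.5 to 94.0) had both on chromosome 22, 86.3% on chromosome 16, 81.2% on chromosome 17 and 81.1% on chromosome 19. The lowest shares were 59.0% (51.5 to 66.2) on chromosome 18, 61.7% on chromosome 8, 62.0% on chromosome 4 and 62.4% on chromosome X.

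**Figure D3:**
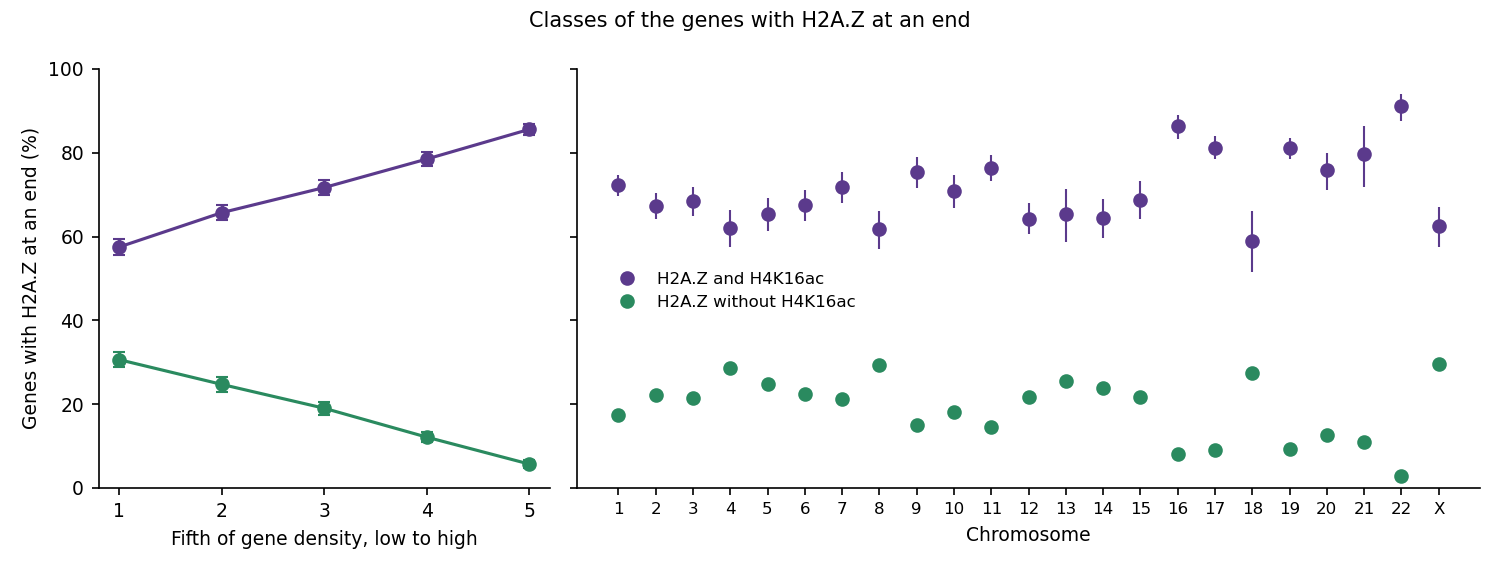
Share (y axis, percent) of the genes with consensus H2A.Z at an end that also had H4K16ac at an end or had none within 5 kb, by group of gene density (left, 1 the sparsest of 5) and by chromosome (right), with exact 95% intervals as bars on all points but those of the class without H4K16ac by chromosome. The share with both runs from 57.5% to 85.6% over the 5 groups and is highest on chromosome 22, at 91.1%.

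Genes with both signals were longer than those with H4K16ac without H2A.Z and shorter than those with H2A.Z without H4K16ac. Median lengths were 26.6 kb with both, 39.8 kb with H2A.Z without H4K16ac and 6.08 kb with H4K16ac without H2A.Z, against 25.6 kb for all genes. Within genes of 10 to 50 kb, H3.3 lay at an end of 94.5% of 4119 genes with both, 67.8% of 1061 genes with H2A.Z without H4K16ac and 43.7% of 71 genes with H4K16ac without H2A.Z. For H3K79me2 the shares among these genes were 83.1%, 79.5% and 11.3%.

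Promoter letters differed modestly between the H2A.Z classes. The motif CCGGAA, the core bound by ETS factors, was searched on both strands, as were the letters that follow. CCGGAA was in 27.4% (26.4 to 28.4) of promoters with both and 34.3% (32.2 to 36.4) of those with H2A.Z without H4K16ac, against 23.1% of all 15413 listed promoters. The GC box GGGCGG went the other way, at 74.1% and 66.5%, against 59.4% of all. Since GC content differed too, the ETS core was counted within quartiles of GC content. In the lowest quartile it was in 26.3% of promoters with both and 34.9% of those without H4K16ac, and in the highest in 21.5% and 22.7%, which did not differ beyond counting error. A match of letters is a description and does not show binding.

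Chaperones, ribosomal proteins and RAB genes were more often with both signals than all genes were. Chaperones of the heat shock and DNAJ families were with both in 57 of 79 cases (72.2%, 60.9 to 81.7), against 48.6% of all genes, led by HSPA14 and HSPA8, the constitutive HSC70. Cytosolic ribosomal proteins were with both in 58 of 85 cases, led by RPL10A (−log10 q 53.9 for H2A.Z and 51.4 for H4K16ac) and RPL35 (44.0 and 49.2). RAB GTPases, which steer vesicles, and proteins that act on them were with both in 49 of 74 cases, led by RAB34. Among members with H2A.Z at an end, 86.4%, 82.9% and 75.4% of these lists had both, in the order given, against 71.8% of all such genes. No counting intervals were computed for the shares among these members. By contrast 13 of 89 splicing factors had H2A.Z without H4K16ac (14.6%), close to the 12.4% of all genes.

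Several lists of different function had a higher share of H2A.Z without H4K16ac than all genes. Mediator subunits, which link factors to RNA polymerase II, were in this class in 9 of 30 cases (30.0%, 14.7 to 49.4), among them MED11 (−log10 q 65.5 for H2A.Z) and MED14 (60.1), against 12.4% of all genes. Aminoacyl-tRNA synthetases were in it in 10 of 35 cases (28.6%), led by RARS1 (78.2). Subunits of oxidative phosphorylation were in it in 23 of 84 cases (27.4%, 18.2 to 38.2), led by NDUFB9 of complex I (81.2) and ATP5PO of ATP synthase (61.4). Genes of DNA replication followed with 12 of 44, led by POLA1, the catalytic subunit of polymerase alpha (67.0), and centromere and kinetochore genes with 9 of 34, led by CENPL and NUF2. Kinesins, motors along microtubules, were in it in 10 of 39 cases, led by KIF1B at 113. Most members of these lists had H2A.Z at an end, as 29 of 30 Mediator subunits did, against 67.6% of all genes. Among such members 29.4% (kinesins) to 31.5% (oxidative phosphorylation) were in the class, against 18.4% of all genes with H2A.Z at an end. These shares rest on only 29 to 73 members per list and counting intervals for them were not computed. Whether they differ from 18.4% beyond counting error was not tested. In each of these lists more members had both signals than H2A.Z alone, as 28 of 44 replication genes did, among them MCM7 and ORC2.

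**Figure D4:**
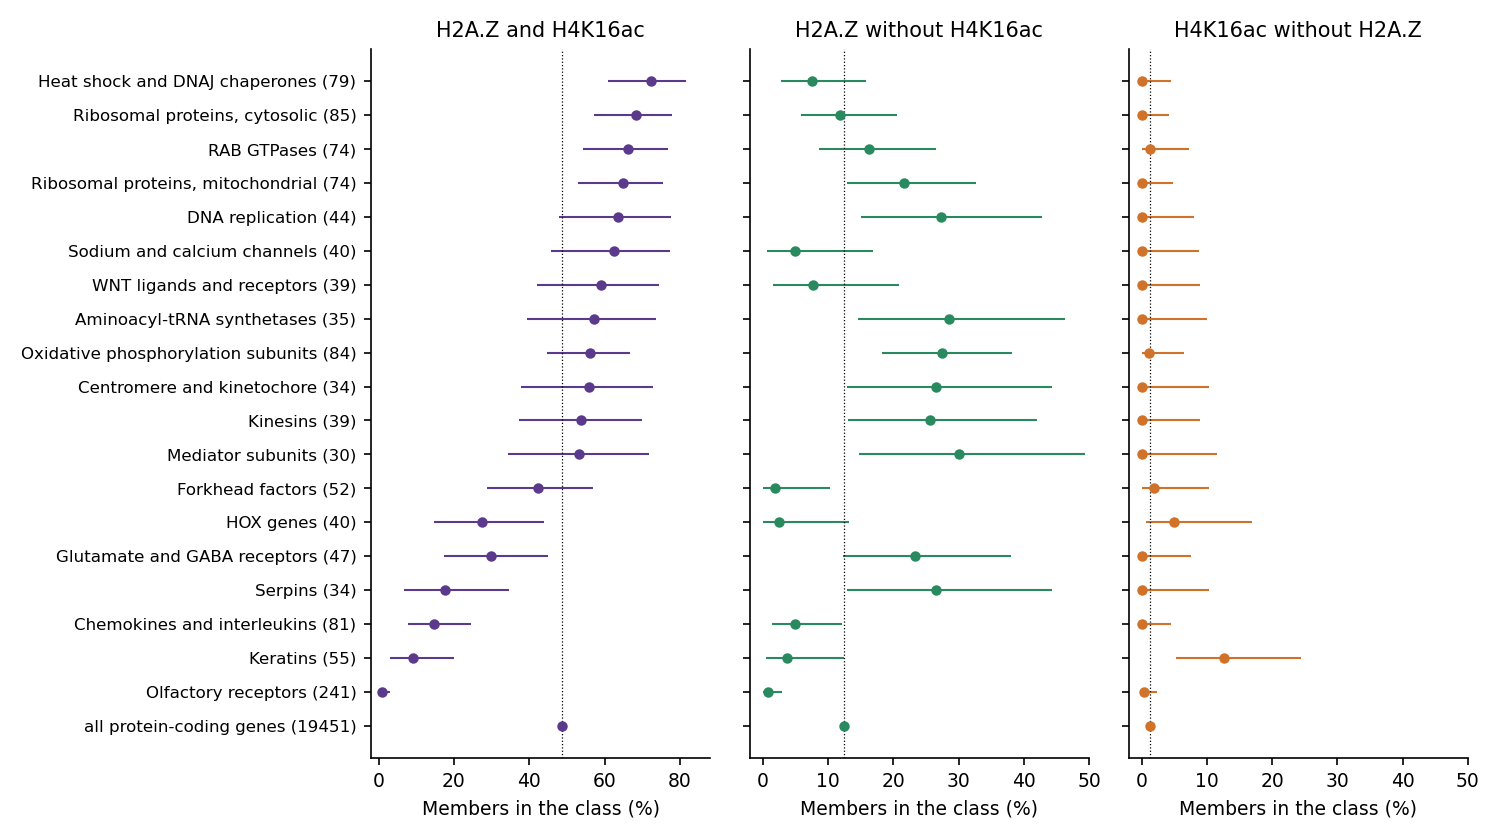
Share of the members of 19 gene lists (rows, with the number of members) in the class with both signals, with H2A.Z without H4K16ac and with H4K16ac without H2A.Z (x axes, percent, with exact 95% intervals as bars), with all protein-coding genes in the bottom row and as a dotted line. Chaperones lie highest for both signals at 72.2%, Mediator subunits highest for H2A.Z without H4K16ac at 30.0% and keratins highest for H4K16ac without H2A.Z at 12.7%.

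Forkhead factors had H2A.Z without H4K16ac less often than all genes, of which 12.4% had it. They had it in 1 of 52 cases (1.92%, 0.0487 to 10.3), namely FOXO4 (−log10 q 111), while 22 had both, led by FOXE1 and FOXJ1. FGF and BMP ligands had it in 2 of 43, BMP2 and FGF10, and sodium and calcium channels in 2 of 40, SCN9A and SCN7A. SOX, GATA and T-box factors had it in 3 of 41 and homeobox factors outside the HOX clusters in 6 of 91. WNT ligands and receptors had it in 3 of 39, and the counting intervals of all 5 of these lists included 12.4%. Both signals were at 23 of the WNT genes, led by WNT3A at 214 for H2A.Z and 46.3 for H4K16ac. By contrast, glutamate and GABA receptors had H2A.Z without H4K16ac in 11 of 47 cases, led by GRIK2, and both signals in 14. Their share of 23.4% (12.3 to 38.0) also had an interval that included 12.4%. Serpins, inhibitors of proteases, had H2A.Z without H4K16ac in 9 of 34 cases (26.5%), led by SERPINE2, and both in 6.

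Olfactory receptors, which sense odours in the nose, were mostly in none of the classes. Of 241 olfactory receptor genes, 2 had both, 2 had H2A.Z without H4K16ac and 1 had H4K16ac without H2A.Z. HOX genes, which set position along the body axis, had both signals in 11 of 40 cases (27.5%), H2A.Z without H4K16ac in 1, HOXA4, and H4K16ac without H2A.Z in 2, HOXB1 and HOXA6, against 48.6%, 12.4% and 1.29% of all genes. Most markers of the cell line had each of the peaks counted here at an end, but so did most of all genes. Of 13 genes of kidney and the HEK293 lineage, 11 had consensus H2A.Z, 9 H4K16ac and 9 H3K79me2 at an end, against 67.6%, 55.0% and 55.4% of all genes. WT1, VIM and KRT18 had all of them, whereas PAX2 and PAX8 lacked consensus H2A.Z and H3K79me2 there. Of 7 blood markers 2 had consensus H2A.Z, 2 H4K16ac and 0 H3K79me2. Of 3 markers each of liver, muscle, pancreas and skin, consensus H2A.Z lay at an end of 1, 1, 0 and 1, H4K16ac at 1, 2, 1 and 0, and H3K79me2 at 1, 0, 0 and 0. The markers thus did not separate tissues fully.

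The 250 genes with H4K16ac without H2A.Z were small, with a median length of 6.08 kb, and came from many families. The rule itself favours short genes here, since it allows no H2A.Z peak anywhere in the gene. Keratins, the intermediate filaments of epithelium and hair, held 7 of their 55 members in this class (12.7%, 5.27 to 24.5), against 1.29% of all genes. They were KRT83, KRT32, KRT71, KRT81, KRT3, KRT4 and KRT74, led by KRT83 with an H4K16ac −log10 q of 10.2. All but KRT32 lie in a cluster on chromosome 12 (52285913 to 52814116). They are therefore not independent cases, and the interval understates the uncertainty. The list of taste and trace amine receptors had 2 of 28 (7.14%, 0.877 to 23.5), an interval that includes the 1.29% of all genes. They were TAS1R3 (19.1) and TAS1R2 (7.45), which together form the sweet receptor. Other members were the muscle actin ACTA1, the erythroid factor GATA1, the drug-metabolising enzyme CYP2D6, the autophagy protein MAP1LC3A and AQP1, a water channel of kidney tubules, with H4K16ac −log10 q of 8.16, 10.6, 17.5, 22.3 and 11.4. The olfactory receptor, blood antigen and cancer-testis lists gave 1 of 241, 1 of 78 and 2 of 104 members, namely OR10C1, CD300C, CT47B1 and GAGE10. These shares were near or below the 1.29% of all genes, or had counting intervals that included it.

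Germline genes formed a group within the class. The list that follows was written after the members had been seen, so its counts are a description. Of 49 genes of meiosis, germ cells and the piRNA pathway, 10 had H4K16ac without H2A.Z (20.4%, against 1.29% of all genes), 15 had both and 1, PRDM9, had H2A.Z without H4K16ac. The 10 were MSH4 (H4K16ac −log10 q 11.5) and SHOC1 (6.56), which act in meiotic crossing over, SYCP3 (8.79) and HORMAD1 (8.44) of the chromosome axis, and the RNA-binding proteins DAZL (9.00), BOLL (6.96) and RBM44 (6.41). The others were MORC1 (7.01) and the Argonaute proteins PIWIL2 (6.14) and PIWIL4 (6.14), which silence transposons. The median of the whole H4K16ac list was 7.45, and the 10 genes lay on both sides of it. H3.3 lay at an end of 29 of the 49 genes and H3K79me2 at 10, against 64.5% and 55.4% of all genes. When each list was held to its 20000 strongest peaks, 2 of the germline genes were in the class. SYCP2, STAG3 and MEIOC, by contrast, had strong H2A.Z as well, at −log10 q of 85.4, 85.6 and 65.0.

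Metallothioneins, small proteins that bind zinc and copper and lie in a cluster on chromosome 16, showed all arrangements side by side; this list too was written after the members had been seen. MT1E (H4K16ac −log10 q 16), MT3 (6.14), MT1M (4.89) and MT1H (3.70) had H4K16ac without H2A.Z. MT1F had both, with 66.7 for H2A.Z and 4.41 for H4K16ac, and MT1X had H2A.Z without H4K16ac, at 52.6. None of the 10 genes had H3K79me2 at an end, and MT1E alone had H3.3, against 55.4% and 64.5% of all genes.

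Part of the class with H4K16ac without H2A.Z overlapped other genes. The summit of the leading H4K16ac peak lay inside another protein-coding gene in 29.2% (23.6 to 35.3) of these genes, against 19.2% (18.5 to 20.1) of genes with both. Within 1 kb of an end of another gene the order was the opposite, at 16.4% (12 to 21.6) and 24.9% (24.1 to 25.8). Either placement held for 35.6% (29.7 to 41.9) and 30.1% (29.2 to 31.0), which did not differ beyond counting error. RefSeq loci without a name made up 10.0% of the class, 1.29% of genes with both and 2.85% of all genes. For such genes the peak cannot be assigned to 1 gene by position. NPM1, which encodes nucleophosmin, was in the class with H4K16ac at 16.1 and H3K79me2 at 742 at an end, and H2A.Z lay 8.01 kb from the gene. NPM1, the hair keratins KRT81 and KRT83, CYP2D6 and GAGE10 have near-identical copies elsewhere in the genome, so their peaks are uncertain.

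Inside genes, 47.6% of the 45578 H4K16ac peaks lay more than 5 kb from any H2A.Z peak. These 21706 peaks fell in 4054 genes (20.8% of all genes), and 234 genes with at least 20 each held 37.2% of them. Compared with H4K16ac peaks inside genes that overlapped consensus H2A.Z, they were slightly narrower and weaker: median width was 280 bp against 324 bp and median −log10 q 7.45 against 8.63. Of their host genes, 68.5% were genes with both signals, against 48.6% of all genes. By the choice of classes no host could have H2A.Z without H4K16ac (12.4% of all genes) or no peak within 5 kb (14.6%). The 48.6% counts those genes as well, so it is no like measure for the hosts.

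The genes with most such peaks were MAD1L1, GSE1 and HDAC4. MAD1L1 on chromosome 7 (1815795 to 2232945), a protein of the spindle checkpoint, held 226 over 417 kb, with −log10 q from 2.46 to 26.3 and a median of 8.87. GSE1, a protein of histone deacetylase complexes, held 134, HDAC4, a class IIa deacetylase, 133, and IQSEC1, an exchange factor of ARF GTPases, 124. VAV2, a guanine nucleotide exchange factor, held 112, KDM4B, a histone demethylase of H3K9, 110, and PRDM16, a factor of brown fat and blood stem cells, 108. All 7 named here also had H2A.Z and H4K16ac at an end. The density differed between them, from 26.4 peaks per 100 kb in GSE1 to 59.6 in KDM4B. So did H3.3, which overlapped 103 of the 134 peaks in GSE1 and 85 of 110 in KDM4B, but 36 of 133 in HDAC4 and 39 of 124 in IQSEC1. Over all 21706 such peaks the share was 45.6%.

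The strongest such peaks lay in shorter genes. COQ8A, an atypical kinase of coenzyme Q synthesis, had its strongest at −log10 q 44.0 (chromosome 1, 226977299 to 226978699, 22.3-fold enrichment by the authors' value), and LLGL1, a cell polarity protein, at 43.9 (chromosome 17, 18241306 to 18241814, 23.5-fold). SLC39A13, a zinc transporter, had 37.9, AATK, a neuronal kinase, 36.4, and MROH1 and TECPR1, a lysosomal membrane protein, 36.3 each. FAM193B had 36.1 and GNB1L, a WD repeat protein, 36.0. H3.3 overlapped all 8 of these peaks, and H3K79me2 overlapped those in COQ8A and FAM193B. In the strongest quartile of peaks away from H2A.Z the shares were 73.0% and 28.1%.

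Away from H2A.Z, H4K16ac inside genes was less often with H3.3 and with H3K79me2. H3.3 overlapped 45.6% (44.9 to 46.2) of the peaks away from H2A.Z and 83.1% (82.0 to 84.1) of those with consensus H2A.Z, against 58.8% of all H4K16ac peaks. When each list was held to its 20000 strongest peaks, 8345 peaks lay away from H2A.Z and 22% of them overlapped H3.3, against 69.0% of those with consensus H2A.Z. H3K79me2 overlapped 19.3% (18.8 to 19.8) and 41.3% (39.9 to 42.6), against 25.2% of all. Neither list overlapped 49.9% of the peaks away from H2A.Z, against 14.5% of those with it. Strength changed the picture for H3.3: in 4 equal groups by H4K16ac −log10 q, weakest first, 26.2%, 34.6%, 48.5% and 73.0% of the peaks away from H2A.Z overlapped H3.3. For H3K79me2 the shares were 13.7%, 15.9%, 19.6% and 28.1%.

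These peaks grew denser towards the far end of the gene. Because H2A.Z sits at starts, the rule itself leaves less sequence near them, so peaks were counted per Mb of gene sequence that lay at least 5 kb from any H2A.Z peak and over 1 kb from any gene end. In the 11552 oriented genes of at least 10 kb the density was 5.86 peaks per Mb in the first of 10 equal parts of the gene, 17.1 in part 5 and 37.6 in the last. In the 2757 genes of at least 100 kb it was 5.38, 8.53 and 26.7 at the same places. Neighbouring genes near the far end were not removed.

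**Figure D5:**
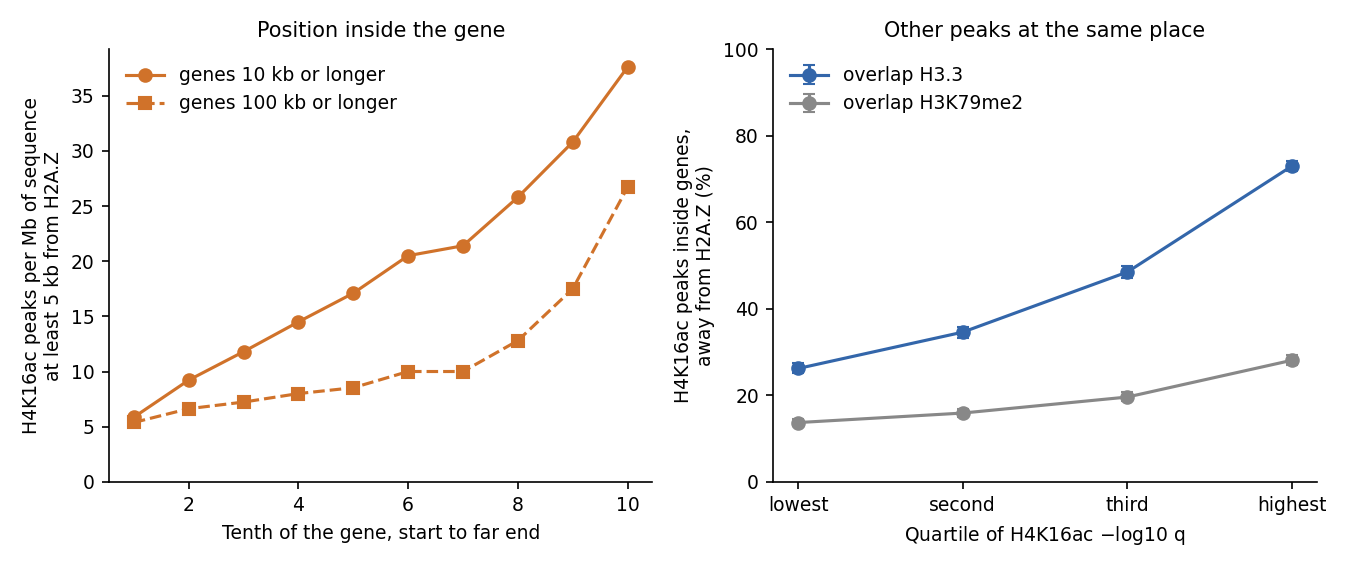
Left, H4K16ac peaks per Mb of gene sequence at least 5 kb from H2A.Z (y axis) by 10 equal parts of the gene from start to far end (x axis), for genes of at least 10 kb and of at least 100 kb, with lines joining the values. Right, share of the intragenic H4K16ac peaks away from H2A.Z (y axis, percent, exact 95% intervals as bars) that overlapped H3.3 or H3K79me2, by quartile of H4K16ac −log10 q (x axis). The density runs from 5.86 to 37.6 per Mb in genes of at least 10 kb, and the H3.3 share from 26.2% to 73.0%.

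The range was wider by gene density than by position in the gene. In 5 equal groups of genes by neighbours within 500 kb, sparsest first, the peaks numbered 4.03, 17.9, 37.8, 66.6 and 128 per Mb of available gene sequence. Chromosomes 19 (120 per Mb) and 22 (106 per Mb) were highest, and chromosomes X (3.73 per Mb) and 18 (6.16 per Mb) lowest, against 20.4 per Mb over all genes. Genes with H3K79me2 at an end held 30.2 per Mb, against 8.81 in genes without it, and genes with consensus H2A.Z at an end held 25.3 per Mb, against 7.77 in genes without it. A peak in overlapping genes counts once for each in these densities.

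Gene lists differed widely in how often their members held intragenic H4K16ac away from H2A.Z. Myosin heavy chains held it in 21 of 40 cases (52.5%, 36.1 to 68.5) and sodium and calcium channels in 21 of 40, with median lengths of 105 and 111 kb. Semaphorins, plexins and ephrins held it in 25 of 52 cases (48.1%) at a median length of 42.4 kb. Phosphodiesterases and adenylate cyclases held it in 15 of 36 (41.7%) at 131 kb, collagens in 17 of 44 (38.6%) at 145 kb, GTPase regulators in 31 of 82 (37.8%) at 125 kb and aminoacyl-tRNA synthetases in 13 of 35 (37.1%) at 33.9 kb, against 20.8% of all genes. Other lists of long genes held few: clustered protocadherins, with a median length of 110 kb, held it in 0 of 53 cases (0 to 6.72%), and glutamate and GABA receptors, at 146 kb, in 6 of 47 (12.8%). The protocadherins lie in clusters, so they are not 53 independent cases and their interval understates the uncertainty. Cytosolic ribosomal protein genes, short and mostly with both signals at an end, held it in 1 of 85 cases.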

How the data were processed

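ChIP-seq peak lists, 1 for each antibody and library, were analysed as deposited. The submitters' processing notes name bcl2fastq 2.17, Trimmomatic 0.33, Bowtie 1.1.2 and MACS2 2.1.0 as tools, and hg38 as genome build. Their settings, the use of the input, the treatment of duplicate and multiply mapping reads and the read depth are unknown here. For every peak the authors' deposited list gives a linear ratio (fold enrichment), a −log10 p-value, a −log10 q-value, a score for display and a summit. Fold and −log10 q described or ordered peaks inside 1 list, and the score was left unused. A missing peak means one below the authors' threshold, and list lengths are no measure of abundance.

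Peaks on chromosomes 1 to 22 and X were set against protein-coding genes of at least 1 kb from a RefSeq table of GRCh38.p14, the assembly of hg38, with Python 3.11.15 (numpy 2.4.6, pandas 2.3.3, scipy 1.17.1). Strand and start came from the RefSeq promoter table, which lists them for 79.2% of the genes, so start-based values cover listed genes only. No exon or untranslated region was assigned. The classing of genes was tested on simulated peaks. The classes, gene lists and alternatives were chosen with earlier results of these data known. Named genes are the 8 with the strongest leading peaks of each class (genes that share a peak counted once), the 8 with most and the 8 with strongest intragenic peaks, up to 2 members per class of each gene list, all genes of the H2A.Z and H4K16ac machinery and the markers. Other genes named, among them the members beyond 2 per list, the germline genes and the metallothioneins, were chosen after their values were seen. Some named members are not reported here. The 11 alternatives tried are given in the closing section.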

Additional observations from a re-analysis of the deposited data

How the results depend on the processing

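Of 138 values recomputed under 11 other settings, 96 stayed within the counting interval of a share or within 1.5 times of a count. Some of the 96 could not move, because the setting left their inputs unchanged. The 250 genes with H4K16ac without H2A.Z under another choice of consensus are an example. In every setting H3.3 and H3K79me2 were most frequent with both signals, then with H2A.Z without H4K16ac, then with H4K16ac without H2A.Z. Counting absence only around gene ends moved no value past these limits, but it cannot alter the genes with both or the intragenic values. When each list was held to its 20000 strongest peaks, 25.7% of consensus peaks overlapped H4K16ac, 4086 genes had both, 5167 had H2A.Z without H4K16ac, 388 had H4K16ac without H2A.Z, and 8345 intragenic peaks lay away from H2A.Z. H3.3 was then at 80.0%, 51.7% and 37.9% of the classes in that order, H3K79me2 at 84.8% of genes with both and 25% of genes without H2A.Z, and both overlapped fewer intragenic peaks away from H2A.Z (22% and 13.7%). This setting keeps fewer peaks of every list. With −log10 q of at least 5, 42.6% of consensus peaks overlapped H4K16ac, H3K79me2 was at 82.4% of genes with both and H3.3 on 47.5% of intragenic peaks away from H2A.Z. Where an overlap had to cover 50% of the peak, the share was 33.6%, and H3.3 and H3K79me2 lay on 38.0% and 17.3% of those intragenic peaks. With summits in place of any base, the overlap was 41.4%, H3.3 was at 93.9% of genes with both, H3K79me2 at 78.1% of them and 67.6% of genes without H4K16ac, and the intragenic shares were 40.5% and 18.1%. With CST peaks alone, the overlap was 42.3%, H3.3 was at 93.5% and 62.4% of the H2A.Z classes and H3K79me2 at 79.2% and 70.0%. With Abcam peaks that overlap CST peaks, the overlap was 51.0%. An end window of 500 bp gave H3.3 at 93.1% and 62.0% of the H2A.Z classes, and 2 kb gave 95.1% with both and 44.8% of the intragenic peaks. Absence within 10 kb left 162 genes with H4K16ac without H2A.Z, 47.5% of them with H3.3, and intragenic shares of 41.3% and 17.4%. Counting starts only left 155 such genes, 8.39% of them with H3K79me2, and gave H3.3 at 94.0% and H3K79me2 at 84.5% of genes with both. For the other changes the cause was not tested. No paired analysis was possible because each antibody has 1 library. Depth is unknown, so a weak mark that gave no peak cannot be told apart from an absent one.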

Other observations

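The genes that encode the enzymes and subunits of H2A.Z exchange and H4K16 acetylation were also examined. Of 29 such genes, 23 had both signals at an end, 27 had H3.3 and 28 had H3K79me2, against 48.6%, 64.5% and 55.4% of all genes. KAT5, which acetylates H4, had the highest H2A.Z value of the CST list among them, at −log10 q 196, beside 12.3 for H4K16ac, whereas SRCAP was high in both, at 155 and 121. HCFC1, a cofactor in the NSL complex, had 60.8 and 44.9, and YEATS4, a reader in the SRCAP and EP400 complexes, had 47.1 and 35.2. The H2A.Z genes H2AZ1 and H2AZ2 had 31.7 and 14.8 for H2A.Z, beside 5.88 and 5.16 for H4K16ac. H2A.Z without H4K16ac was found at VPS72, a chaperone of H2A.Z, at MSL3, a subunit of the MSL acetylase, and at SIRT1, a deacetylase of H4K16. KAT8 had H4K16ac at 14.5 and H2A.Z in the Abcam list alone, at 14.4. PHF20, a subunit of the NSL complex, had H2A.Z at an end and its nearest H4K16ac peak 3.35 kb away.

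The height of H2A.Z said little about the height of H4K16ac in the genes that had both. Spearman's correlation between the −log10 q of the leading peaks was 0.11 over 9445 genes. H4K16ac was closer to H3.3 (0.27 over 8926 genes) and to H3K79me2 (0.24 over 7688 genes), whereas H2A.Z and H3K79me2 had a correlation of -0.11. These are correlations across genes, which are not independent replicates, and neighbouring genes can share a peak.

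Outside genes and their ends, 9660 consensus peaks and 15555 H4K16ac peaks were found. There 41.4% of consensus peaks overlapped H4K16ac and 26.8% of H4K16ac peaks overlapped consensus H2A.Z. H3K79me2 was rare on these consensus peaks, at 12.8% with H4K16ac and 3.53% with none within 5 kb, while H3.3 was on 74.3% and 23.7% of them.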
